A study of Mus musculus with 6 samples.

Results

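Endothelial cells line the blood and lymphatic vessels, and 55 of the 11032 cells kept from 3 mouse skin wound libraries were counted here as wound endothelial cells. A cell was kept when it had at least 300 detected genes, fewer than 100000 unique molecular identifiers (UMIs, counts of captured RNA molecules) and less than 10% of its UMIs from mitochondrial genes. A kept cell was a member when it held UMIs of at least 3 of the 6 endothelial markers Pecam1, Cdh5, Vwf, Egfl7, Cldn5 and Kdr, at most 1 UMI of Ptprc, which encodes the leukocyte antigen CD45, and fewer than 10 UMIs of Lyz2, which encodes lysozyme. The members were therefore chosen by the UMIs of these genes, whose values are given only as a description. The same holds for any gene that runs with them in the same cells, so the ratios of members to other cells carry no test. The series holds 35083 kept cells in 6 libraries, and the rule gave 2 cells among the 24051 kept cells of the 3 dendritic cell (DC) cultures.

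Each of the 3 wound libraries holds dissociated skin wound tissue of 1 condition, read with droplet-based 3′ single-cell RNA sequencing. The wounds had been covered with hydrogels that carried Ndrg2-knockout DCs, control DCs or no cells (blank). Per the study's methods, the DCs were grown from bone marrow, edited with Cas9 outside the animal and seeded at 500000 cells on a collagen-pullulan hydrogel of 8 mm, which was laid on a splinted full-thickness wound of 6 mm on the back of 6-week-old mice. Tissue was taken on day 10 from 5 mice per group. The labels call the control DCs untreated, whereas the methods describe 3 non-targeting guides for control DCs. The labels do not give the strain, sex or number of the mice behind each library. The methods name C57BL/6J wild-type and db/db mice, of both sexes, and do not say which gave the sequenced wounds. The study's results explain the choice of day 10 by healing curves from its wild-type experiment. Ndrg2 was edited in the seeded DCs and not in the host, so its level in endothelial cells checks no label. The series' design text speaks instead of GFP-labelled circulating cells from parabiotic mice. The EGFP feature of the 3 wound libraries held 1 UMI in all.

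Each condition is 1 library and no label ties a cell to a mouse. No test between conditions was therefore possible, and the 95% intervals below (exact Clopper-Pearson for shares, exact Poisson for levels, exact conditional binomial for ratios) cover counting error only. The wound libraries held 1948 (control DC), 5681 (Ndrg2-KO DC) and 3403 (blank hydrogel) kept cells, with medians of 10795, 4415 and 5603 UMIs per cell. Pairs of libraries shared 3 to 5 deposited barcodes, none of which was a member.

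Endothelial cells are joined to each other by the cadherin encoded by Cdh5 and read vascular endothelial growth factor (VEGF) through receptors such as Kdr and Flt1. In healing skin new vessels sprout from existing ones: a tip cell leads, Notch signalling from its ligand Dll4 holds back its neighbours, and pericytes and smooth muscle cells, together called mural cells, coat the young vessel. Arteries, capillaries, veins and lymphatics each keep a gene programme of their own, and transcription factors of the ETS and SOX families maintain endothelial identity.

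Several of the genes that marked the members have promoters in the RefSeq table (build GRCm38.p6) from 250 bases before to 50 bases after a transcription start. ETS factors such as ERG and FLI1 bind sequences with a GGAA core. The 6-base form CAGGAA and its reverse complement TTCCTG, which cannot overlap each other, were searched on these windows. Of the 20 genes with the highest ratio of members to other wound cells, 11 were in the table and 8 held a match (72.7%). Of 22 pan-endothelial genes, 13 were in the table and 10 held one (76.9%). Of the 6 rule markers 3 were in the table and 1, Egfl7, held one (33.3%). Over all 27025 genes of the table the share was 28.3%. The stretches below are shown because their genes lead the list or belong to the pan-endothelial set. Capitals mark the match nearest the start, with up to 25 bases on each side, 5′ to 3′ on the strand of the gene. All lie before the RefSeq start, which for Tie1 and Robo4 falls inside the gene by GENCODE coordinates. They come from chr3:137340986-137341041 (+) for Emcn, chr4:118490028-118490083 (-) for Tie1, chr10:5593678-5593727 (+) for Myct1, chr16:85550504-85550559 (-) for Cyyr1, chr19:24673945-24674000 (+) for Tmem252, chr6:115252285-115252340 (-) for Timp4 and chr9:37401897-37401952 (+) for Robo4.
Emcn: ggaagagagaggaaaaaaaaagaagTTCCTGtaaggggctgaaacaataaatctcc
Tie1: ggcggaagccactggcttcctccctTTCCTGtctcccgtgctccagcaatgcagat
Myct1: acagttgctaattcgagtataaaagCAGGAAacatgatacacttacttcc
Cyyr1: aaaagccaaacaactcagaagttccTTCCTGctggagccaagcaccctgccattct
Tmem252: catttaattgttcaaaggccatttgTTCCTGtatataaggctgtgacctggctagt
Timp4: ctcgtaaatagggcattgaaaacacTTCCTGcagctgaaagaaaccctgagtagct
Robo4: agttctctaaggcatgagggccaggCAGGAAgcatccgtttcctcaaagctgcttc
The match describes these letters only, since a factor's binding was not measured. Rbp7, Tmem255b and Adgrl4, also among the 20 highest genes, had no match in their windows.

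Endothelial members were rare, and their share was highest in the control DC wounds. The control DC library held 28 members, or 1.44% of kept cells (95% interval 0.957 to 2.07). The Ndrg2-KO DC library held 17, or 0.299% (0.174 to 0.479), and the blank hydrogel library held 10, or 0.294% (0.141 to 0.540). The log2 ratio to the control DC wounds was -2.26 (-3.23 to -1.34) for Ndrg2-KO DC wounds and -2.29 (-3.50 to -1.21) for blank wounds, and that of Ndrg2-KO DC to blank wounds was 0.03 (-1.18 to 1.32). The Ptprc and Lyz2 limits took out 2, 13 and 4 cells with at least 3 markers in control DC, Ndrg2-KO DC and blank wounds, and without these limits the Ndrg2-KO DC share was 0.528%. The denominator moved these values too. Leukocytes, here cells with at least 2 Ptprc UMIs, made up 50.2%, 56.1% and 59.3% of the kept cells of control DC, Ndrg2-KO DC and blank wounds. Among cells within the Ptprc and Lyz2 limits, members made up 3.33% in control DC, 0.792% in Ndrg2-KO DC and 0.855% in blank wounds. Per 100 fibroblasts, here cells with at least 4 of 6 fibroblast markers, there were 5.74, 3.51 and 2.92 members. The log2 ratios to control DC wounds were then -0.71 (-1.67 to 0.21) for Ndrg2-KO DC and -0.97 (-2.18 to 0.11) for blank wounds, both with intervals that hold 0. These denominators were chosen after the data had been seen.

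Depth differed as well, and the rule needs several markers from 1 cell. When each cell was drawn to 1000 UMIs before the rule was applied, which left out 25 cells in control DC, 95 in Ndrg2-KO DC and 65 in blank wounds, 11, 3 and 4 members remained. Their shares were 0.572%, 0.0537% and 0.120%, with intervals of 0.286 to 1.02, 0.0111 to 0.157 and 0.0327 to 0.307, so the control DC value was still the highest but its interval overlapped that of blank wounds. The tissue's digestion and the cells' capture were not measured, and their part in the shares was not tested.

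**Figure D1:**
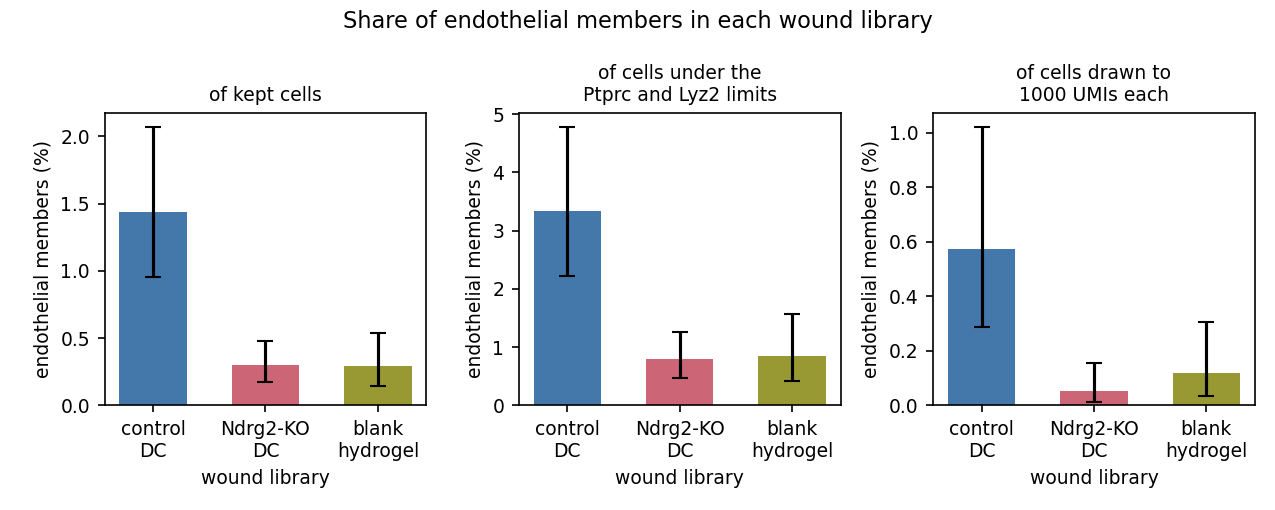
Share of endothelial members in each wound library, in percent (y axis), of all kept cells, of cells within the Ptprc and Lyz2 limits and of cells drawn to 1000 UMIs each; error bars are exact 95% counting intervals. The control DC library is highest in every panel, at 1.44%, 3.33% and 0.572%, and the other 2 libraries have overlapping intervals. In the panel of drawn cells the control DC interval (0.286 to 1.02) also overlaps the blank one (0.0327 to 0.307).

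The rule markers were spread unevenly over the members. All 6 were found in 16 members, 5 in 20, 4 in 8 and 3 in 11. Pecam1, an adhesion molecule of vessel junctions, had UMIs in 53 of 55 members, Cdh5 in 49, Egfl7 in 49, Kdr in 46, Cldn5 in 35 and Vwf in 29. The label was checked with 22 other genes of vessel endothelium, summed as UMIs per 1000000 of all UMIs (CPM). Their sum was 8421 CPM in members with 6 markers, 5712 with 5 and 7008 with 4. It was 1530 in members with 3 markers, just inside the rule, beside 786 in the 61 cells with 2 markers, just outside it. The 3-marker members held a median of 5 of the 22 genes, as did the 2-marker cells, at median depths of 5011 and 29545 UMIs. Of the 11 members with 3 markers, 4 held markers of other types and had a pan-endothelial sum of 859 CPM, beside 4651 in the other 7. Fibroblast genes made up 119155 CPM of the 11 cells together, and 16349 of those 16358 UMIs came from 2 cells. Over all members the median was 19 of the 22 genes, 46 members held at least 10 of them, and 4 members held fewer than 5. The endothelial label thus held for most members, and the edge of the rule included a few cells with little endothelial signal.

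Markers of other cell types were present in 14 of the 55 members. At least 3 of 7 mural markers were found in 10 members, at least 4 of 6 fibroblast markers in 5 and at least 3 of 5 leukocyte markers in 3, with 4 members past both the mural and the fibroblast minimum. These 14 cells carried 50.4% of all member UMIs and had a median of 39413 UMIs, beside 9052 in the other 41 members. Among the 41, the sum of 10 mural genes was at 0 in 35 cells, and the fibroblast sum ranged from 0 to 5848 CPM with a median of 113. The leukocyte sum did not fall with them: it had a median of 432 CPM and reached 9650 in the 41, beside a median of 297 in the 14, and was 830 CPM over the 41 and 800 over all members. The 41 members were 22 control DC, 12 Ndrg2-KO DC and 7 blank cells. A doublet score placed 2 members in the highest 6% of their libraries. Doublets were not removed, and values without the 14 cells, an alternative chosen after the data had been seen, are given for the main gene lists.

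**Figure D2:**
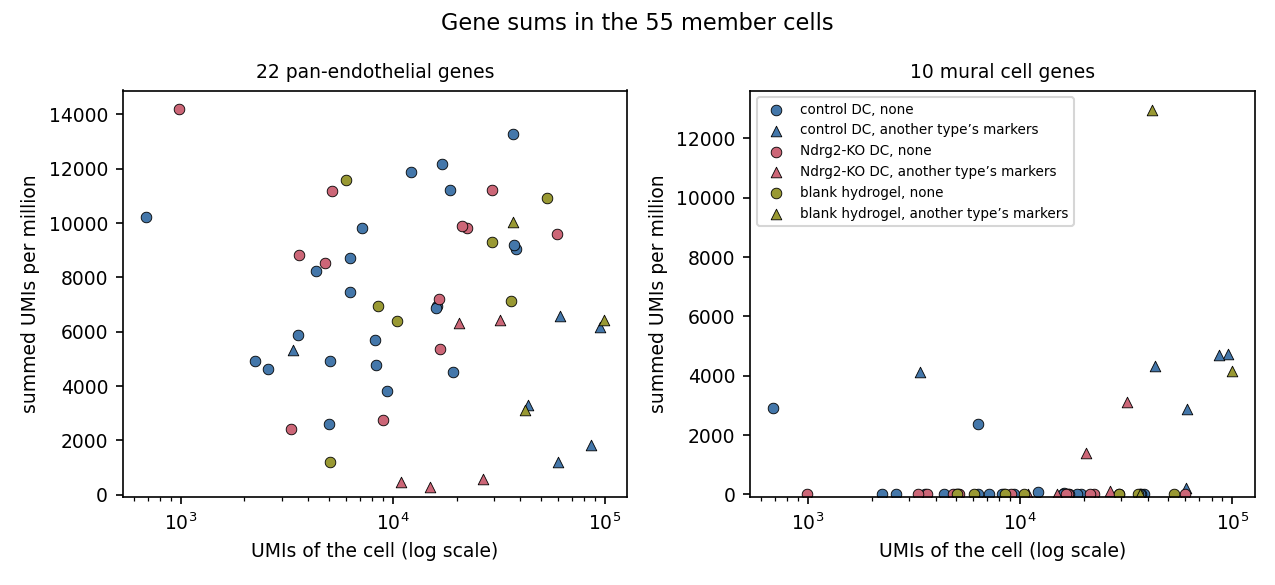
Each point is 1 of the 55 members; the x axis is its UMIs on a log scale and the y axis the summed CPM of 22 pan-endothelial genes (left) or 10 mural genes (right), with colour for the library and triangles for the 14 members that held markers of another type. The mural genes lie at 0 in 38 members, and the triangles reach 12964 CPM.

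Pan-endothelial genes were almost uniformly higher in members than in the other kept wound cells. Among 13581 genes with at least 20 UMIs in both sums together, 22.7% were higher by 2-fold or more, 13.9% were lower, and the median log2 ratio was 0.31. Of the 22 pan-endothelial genes 21 were higher and 1 was lower, with a median of 6.21. Ptprb, which encodes the phosphatase VE-PTP that acts on Tie2 and VE-cadherin, had 420 CPM in control DC, 315 in Ndrg2-KO DC and 443 in blank members. The log2 ratio to other cells was 9.18 (8.83 to 9.54). Emcn, which encodes endomucin, a sialoglycoprotein of capillary and venous surfaces, had 252, 315 and 269 CPM in the same order and a log2 ratio of 8.26 (7.93 to 8.59). Plvap, which forms the diaphragms of fenestrae and caveolae, had 785, 1014 and 639 CPM and a log2 ratio of 8.52 (8.32 to 8.73). The members of each library lay far above the other cells, at 0.693, 0.888 and 2.18 CPM for these 3 genes, and differed between libraries by less than 2-fold. Within that range the log2 ratio of Ndrg2-KO DC to control DC members was 0.37 (0.16 to 0.58) for Plvap and -0.41 (-0.77 to -0.07) for Ptprb, with intervals that exclude 0 and cover counting error only. Ecm1, an extracellular matrix gene, was the exception, with a log2 ratio of -1.25 (-1.49 to -1.02).

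Free RNA reaches all droplets, so each gene was also read in leukocytes. Emcn had UMIs in 46 of 55 members and in 0.0647% of leukocytes, at medians of 15968 and 6949.5 UMIs per cell. With each cell drawn to 1000 UMIs, Emcn was found in 30.2% of 53 members and in none of 6169 leukocytes, and Ptprb in 32.1% of members and in none of the leukocytes. Fabp4, a capillary gene described below, was less confined, with UMIs in 8.69% of leukocytes. With drawn cells it was found in 73.6% of members and 1.78% of leukocytes.

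Scaling mattered for the lower genes. Scaling by the median ratio of 6548 genes in place of the total lowered every log2 ratio by 0.41, and the share of higher genes among those past 2-fold went from 62.0% to 42.7%. Any ratio between 0 and 0.41 turns by this construction, among them the median of the receptors for the study's signals (0.29) and the ratios of Klf2 and Cxcr4.

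The 20 genes with the highest ratios were held by very different numbers of members. Rbp7, a retinol-binding protein of the intracellular lipid-binding family (chr4:149449687-149454978, minus strand), led with a log2 ratio of 12.54 (11.17 to 14.43) and 266 UMIs in 16 members. Only 16 members held it, and 1 cell carried 33.1% of its UMIs. It was followed by Tmem255b at 10.70 and Ccl21a at 10.48, the latter from a single cell described below. Timp4, an inhibitor of matrix metalloproteinases, had a log2 ratio of 10.04 from 10 members, 77 of its 82 UMIs from control DC members. Chga, which encodes chromogranin A of secretory granules, had a log2 ratio of 9.51 from 9 members, and 1 cell held 45.3% of its UMIs. Ccm2l, Grrp1, Tmem252, Gpr182, Myct1, Cyyr1, Podxl, Adgrl4 and Tie1 lay between 8.46 and 9.47, each with UMIs in 12 to 41 members. Tmem252 and Myct1 were found in 34 and 41 members, more widely than Rbp7, Timp4 or Chga.

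The transcription factors split into endothelial and widely used genes. Of 16 factors, 12 were higher in members by 2-fold or more and none was lower, with a median of 2.62. The SOXF factors, which act in vessel formation and arterial fate, had log2 ratios of 8.55 (8.08 to 9.04) for Sox17, 8.47 (8.11 to 8.84) for Sox7 and 8.06 (7.62 to 8.53) for Sox18. Erg, the ETS factor that maintains endothelial identity, had 38 UMIs in 23 members and a log2 ratio of 7.09 (6.32 to 7.88). Fli1, a related ETS factor that leukocytes also use, had a log2 ratio of 2.03 (1.81 to 2.24) and UMIs in 31.8% of leukocytes. The flow-responsive factors Klf2 and Klf4, which many wound cells express, had 0.03 (-0.13 to 0.19) and -0.41 (-0.52 to -0.31). Bcl6b, an endothelial repressor, had 7.32 and Gata2 had 4.77.

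Among the VEGF and angiopoietin genes most receptors were high in members and Vegfa was not. Of 12 measured genes with enough UMIs, 8 were higher and 1 was lower, with a median of 2.05. Flt1, which encodes VEGF receptor 1, had 442 CPM in control DC, 322 in Ndrg2-KO DC and 452 in blank members and a log2 ratio of 6.22 (6.05 to 6.39) to other cells. Tie1 had a log2 ratio of 8.46 and Tek, which encodes the angiopoietin receptor Tie2, had 2.97. The co-receptors Nrp1 and Nrp2 had 1.06 and 0.67, the latter under 2-fold. Among the ligands, Angpt2, which opposes angiopoietin 1 at Tie2, had 4.92 (4.67 to 5.17) and Pgf, which encodes placental growth factor, had 3.99 (3.83 to 4.14). Both lay partly in cells with other types' markers: without them the members' level fell from 147 to 73.9 CPM for Angpt2 and from 314 to 45.0 for Pgf. Vegfa had 34 UMIs in 14 members and a log2 ratio of -2.70 (-3.23 to -2.22).

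Notch genes were next. Of 11 genes with enough UMIs 9 were higher and 1 lower, with a median of 5.37. Dll4, the Notch ligand of tip and arterial cells (chr2:119325784-119335962, plus strand), had UMIs in 24 members and a log2 ratio of 7.25 (6.69 to 7.83). Its receptors Notch4 and Notch1 had 5.53 and 1.89, and the target genes Hey1, Nrarp and Hes1 had 6.12, 5.50 and 2.90. Notch2 had -2.74 with 15 UMIs. Notch3, a receptor of mural cells, had 6.31, but its level fell from 121 to 3.21 CPM without the members that held other types' markers. Notch4 was level in the same comparison, at 54.1 and 56.2 CPM. In the BMP9 and ALK1 pathway 8 of 11 genes were higher and 1 lower (median 1.11): Eng, the co-receptor endoglin, had 4.72, the target Id1 had 2.25, and Id2, which leukocytes express, had -2.16.

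Capillary genes were the next group, and a single gene dominated their sum. All 10 genes of the list with enough UMIs were higher, with a median of 6.45, and together they held 17810 CPM in members and 471 in other cells. Fabp4, a fatty acid-binding protein of capillary endothelium and fat cells (chr3:10204088-10208576, minus strand), accounted for most of it. It had 16275 CPM in control DC, 13969 in Ndrg2-KO DC and 6032 in blank members. The log2 ratio to other cells was 8.09 (8.04 to 8.13). Its spread between cells was wide, from 0 to 67962 CPM with a median of 4043, and 46 of 55 members held it. In Ndrg2-KO DC members 1 cell gave 3219 of the 4162 Fabp4 UMIs, and the median over cells was 2753, 2816 and 5780 in control DC, Ndrg2-KO DC and blank members. The order of the libraries by sum was therefore not that of their median cell.

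Gpihbp1, which carries lipoprotein lipase to the capillary lumen (chr15:75596628-75599481, plus strand), was even over the wounds at 535, 530 and 465 CPM. Its log2 ratio was 9.03 (8.74 to 9.33), and 33 members held it. Cd36, a fatty acid transporter that macrophages also carry, had 1188, 772 and 633 CPM and a log2 ratio of 3.04 (2.95 to 3.13). The water channel gene Aqp1 had 6.25, the matricellular gene Sparcl1 7.22 and Btnl9 8.02, while Lpl, the lipase itself, had -1.02 (-1.30 to -0.75), which turned to 0.47 by the mean over cells. Of 14 genes of caveolae, transport and lipid uptake 10 were higher and 1 lower, with a median of 3.05. The caveolar coat genes Cav1 and Cavin2 had 4.09 and 5.36.

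**Figure D3:**
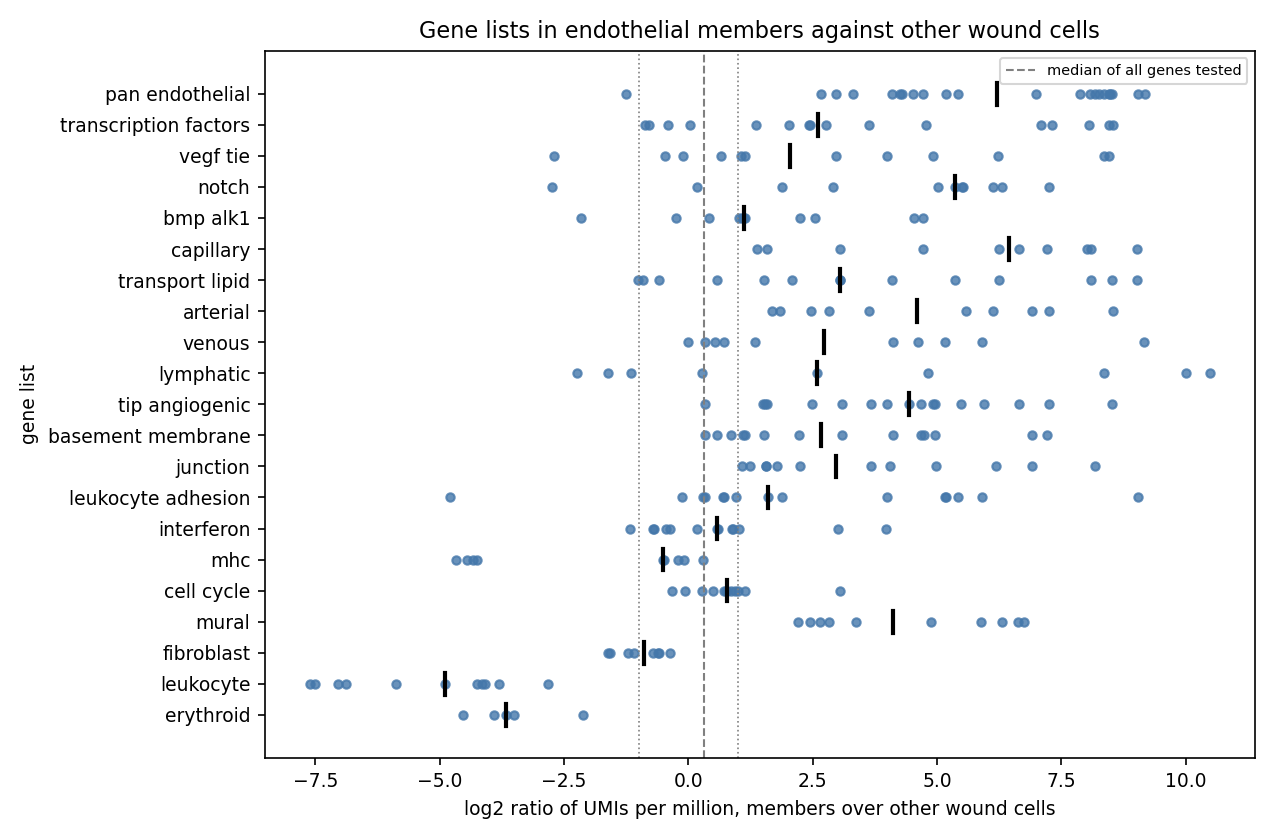
Each point is 1 gene; the x axis is the log2 ratio of CPM in the 55 members over all other kept wound cells, the y axis the gene list, with a bar at each list's median, a dashed line at the median of all 13581 genes (0.31) and dotted lines at 2-fold. The pan-endothelial and capillary lists have medians of 6.21 and 6.45 and the leukocyte list -4.90; a gene at 0 on 1 side is placed at the bound that 3 UMIs allow.

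Venous genes were led by a few cells. Of 10 genes 6 were higher and none was lower, with a median of 2.73. Selp, which encodes P-selectin that slows rolling leukocytes (chr1:164115264-164150026, plus strand), had 684 CPM in control DC, 53.7 in Ndrg2-KO DC and 88.7 in blank members. Of its 477 UMIs, 284 came from 1 control DC cell of 18653 UMIs, and 13 members held it. That cell also held 23 UMIs of Sele, 14 of Ackr1, 18 of Vcam1 and 16 of Vwf, genes of venules through which leukocytes leave the blood. It held none of Gpihbp1, Rbp7 or the venous gene Aplnr, and 1 UMI of Nr2f2. However, it held 78 UMIs of Fabp4, and 7 capillary and 4 arterial genes in all. Sele, which encodes E-selectin, had a log2 ratio of 5.16 (4.73 to 5.58), Nr2f2, the venous fate factor COUP-TFII, 4.62, and Aplnr, the apelin receptor, 9.17 (8.57 to 9.82). Ackr1, the chemokine receptor of venules, had 0.72 (0.09 to 1.29).

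Arterial genes were detected at lower counts. All 10 arterial genes with enough UMIs were higher, with a median of 4.61. Gja4 and Gja5, the connexins of arterial endothelium, had 39 UMIs in 13 members and 9 UMIs in 4, with log2 ratios of 6.91 (6.18 to 7.66) and 8.07 (6.07 to 10.59). Efnb2, the arterial ephrin, had 2.47 and Sema3g 5.58. Of the 13 members with Selp and the 13 with Gja4, 1 held both, whereas 7 of the Selp and 9 of the Gja4 members also held Gpihbp1. By lists, 47 members held at least 3 capillary genes, 35 at least 3 venous and 33 at least 3 arterial genes, and 26 passed both the arterial and the venous minimum. Since the lists overlapped in so many members, no vessel class was assigned to a cell.

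A single member carried the lymphatic programme. It was an Ndrg2-KO DC wound cell of 16773 UMIs with 10 UMIs of Prox1, the factor that sets lymphatic identity, 160 of Ccl21a, the chemokine that draws dendritic cells into lymphatics, 23 of Mmrn1, 15 of Lyve1, 13 of Flt4 (VEGF receptor 3) and 8 of Pdpn. It held none of the blood capillary genes Fabp4 and Gpihbp1, but 4 UMIs each of Aqp1 and Emcn, 2 of Ptprb and 1 of Plvap. By lists it held 3 capillary, 4 arterial and 4 venous genes. All Ccl21a and Mmrn1 UMIs of the members came from this cell. Prox1 had 16 UMIs in 5 members, 14 of them in Ndrg2-KO DC members. The lymphatic list had 5 of 9 genes higher and 3 lower (median 2.58), and without the Ndrg2-KO DC library its median was -0.54, so that library decided its sign.

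Sprouting and basement membrane genes were higher in the summed members than in other wound cells. Of 17 tip and sprouting genes 16 were higher and none lower, with a median of 4.43. Esm1 and Apln, both expressed in tip cells, had log2 ratios of 5.94 (5.28 to 6.59) and 5.48 (5.23 to 5.72), but from 8 and 14 members. Their levels fell from 27.9 to 6.42 and from 162 to 48.2 CPM without the members with other types' markers. Cxcr4, which leukocytes also express, had 0.34 and was found in 19 members. Col4a1 and Col4a2, the chains of the type IV collagen network beneath the endothelium, were found in 51 and 50 members. Col4a1 had 3441 CPM in control DC, 2514 in Ndrg2-KO DC and 3772 in blank members and a log2 ratio of 4.68 (4.63 to 4.73). Lama5, a laminin chain of mature vessels, had 6.91, and 11 of 14 basement membrane genes were higher, none lower (median 2.66). Against fibroblasts alone 7 of the 14 were higher and 1 lower: the list summed to 15818 CPM in members, 11060 in the 41, 14583 in fibroblasts and 17790 in cells with at least 3 mural markers.

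Most junction and vessel tone genes were higher too. All 12 junction genes with enough UMIs were higher (median 2.96), among them the adhesion molecule gene Esam at 8.18 and the cadherin gene Cdh13 at 6.18. Of 10 vessel tone genes 7 were higher and 1 lower (median 3.11). That list also held the Notch ligand Dll4 (7.25), 1 of the 7. Nos3, which encodes endothelial nitric oxide synthase, had UMIs in 28 members and a log2 ratio of 6.68 (6.22 to 7.15), and Edn1, the vasoconstrictor endothelin 1, had 2.87. Ptgis, the prostacyclin synthase, had -2.21 from 19 UMIs in 3 members, but 0.74 when 2 markers sufficed for the rule and 1.25 against leukocytes alone. Of 15 leukocyte adhesion and trafficking genes 8 were higher and 1 lower (median 1.60). The lower gene was Selplg, the selectin ligand of leukocytes, at -4.80, and Cxcl12, which retains CXCR4-bearing cells, had 1.60. The 11 coagulation genes had 3 higher, 2 lower and a median of -0.05, near the 22.7% and 13.9% of all genes, and their sum was 2285 CPM in members and 3601 in other cells, with Procr, the protein C receptor, at 1.84 and Thbs1 at -1.61. Procr had 50.1% of its UMIs in 1 cell and -0.36 without the members with other types' markers.

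Among receptors for the VEGF, IGF, PDGF and SPP1 signals that the study followed from DCs to wound cells, 6 of 15 were higher and 3 lower (median 0.29). The higher genes were Kdr (which also chose the members), Flt1, Nrp1, Itgb1, Itgb3 and Pdgfrb. Pdgfrb, the PDGF receptor of mural cells, was at 0 without the members with other types' markers. The IGF receptors Igf1r and Igf2r had -0.40 and -0.08, and Cd44, a receptor of osteopontin, had -2.27.

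Genes of other cell types moved in the members as follows. All 10 mural genes were higher (median 4.12), led by the pericyte gene Rgs5 at 6.75 (6.63 to 6.88), with 1881 CPM in the sum. In the 41 members without other types' markers that sum was 33.7, and the median of the list turned to -0.47. Of 8 fibroblast genes none was higher and 4 were lower (median -0.90). Their sum was 18862 CPM in all members, 127 in the 41, and 30450 in other cells. All 11 leukocyte genes were lower, with a median of -4.90, and Ptprc and Lyz2 in that list were part of the rule. Their sum was 421, 2098 and 349 CPM in control DC, Ndrg2-KO DC and blank members. The 5 erythroid genes were lower (median -3.67), and 90.3% of their UMIs in control DC members came from 1 cell. Of 6 keratinocyte genes none was higher and 4 were lower; of 4 platelet genes 2 were higher and 2 lower; of 4 Schwann cell genes 1 was higher and 2 lower, on 13 UMIs in all.

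Members of the Ndrg2-KO DC and the blank wounds were then compared with those of the control DC wounds; the first contrast concerns the knockout in the seeded DCs, and the second wounds with no cells against wounds with control DCs. Both comparisons share the 28 control DC members. Between Ndrg2-KO DC and control DC members, 5596 genes had at least 20 UMIs; 5.4% were higher by 2-fold or more, 10.5% were lower, and the median log2 ratio was -0.05. Between blank and control DC members, 5.49% of 5662 genes were higher and 8.67% lower, with a median of 0.05. The excess of lower genes rested on few cells. Without the 5 members with at least 4 fibroblast markers, 299 genes were higher and 275 lower in Ndrg2-KO DC members, against 302 and 588 with them, and 292 and 291 in blank members, against 311 and 491. Without the 6 deepest members the lower counts were 325 and 263. Without the 14 members with other types' markers, 7.11% of 3332 genes were higher and 8.64% lower in Ndrg2-KO DC members, and 6.78% of 3055 genes were higher and 8.71% lower in blank members; counts given below without the 14 cells stand against these shares. Single cells weighed heavily: 26.8% of the higher and 18.9% of the lower genes of the first comparison had over 50% of their UMIs in 1 cell of the group where they were higher, beside 9.76% and 4.74% of all tested genes by the same measure. In the second comparison the shares were 30.9% and 29.3%, beside 16.7% and 4.15%. Scaling by median ratios moved the share of higher genes among those past 2-fold from 38.8% to 24.1% for blank wounds, and leaving out mitochondrial and ribosomal protein genes moved it to 48.5%.

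Few pan-endothelial genes passed 2-fold between the wounds. None of the 22 genes passed 2-fold in either direction between Ndrg2-KO DC and control DC members, and 1 (Clec14a, 1.02) was higher in blank members; the medians were 0.15 and 0.20. Without the 14 members with other types' markers, Ecm1 was higher (1.24) and Ushbp1 lower (-1.17) in Ndrg2-KO DC members, and in blank members Ushbp1 was lower (-1.02) and none was higher, with medians of -0.03 and -0.06. The largest folds lay in other genes and mostly in single cells. The 5 highest genes in Ndrg2-KO DC over control DC members were Mmp13, Mmp12, Arg1, Il1b and Ccl4, genes of macrophages and of matrix breakdown. A single cell of 10955 UMIs held 682 of the 683 Mmp13 UMIs and 527 of the 682 Mmp12 UMIs. That cell and another with 154 Mmp12, 45 Arg1, 96 Cd74 and 9 Lyz2 UMIs were members with 3 rule markers each, and they held 1 to 4 UMIs of each of those markers. They were among the 3 members with leukocyte markers. Without the members with other types' markers, Mmp13 and Mmp12 had no UMIs.

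Among the lowest genes in Ndrg2-KO DC members were Itm2a, C1qtnf3, Bmp2 and P3h3, from a log2 ratio of -5.52 (-10.83 to -3.00) for Itm2a to -4.85 (-10.17 to -2.31) for P3h3. Of these, the control DC members held 61 to 147 UMIs, the Ndrg2-KO DC members 1 or 2, and 3 control DC cells held 65 of 97 Itm2a, 47 of 82 C1qtnf3, and 98 of 147 Bmp2 with 33 of 61 P3h3 UMIs. Each of these 3 cells held both fibroblast and mural markers, with fibroblast sums of 175038, 69329 and 4629 CPM in that order. In blank members the highest genes were Birc5, Igfbp5, Cenpf, Gm37800 and Stmn2, and each rested on a single cell. The cell of 35950 UMIs held all 23 Birc5 and all 26 Cenpf UMIs, and 3 other cells held 55 of 56 Igfbp5, 26 of 26 Gm37800 and 49 of 56 Stmn2 UMIs. The Igfbp5 cell held the highest mural sum of all members (12964 CPM) and the Gm37800 cell was 1 of the 3 with leukocyte markers. The lowest were H19, Dcn, Lum, Mfap5 and Gas7. Fibroblast genes are among these, and the fibroblast sum was 27589 CPM in control DC and 1146 in blank members. The fibroblast-marked cells that carry it were 3 control DC, 1 Ndrg2-KO DC and 1 blank cell. Leukocyte genes were higher in Ndrg2-KO DC than in control DC members for 8 of 9 genes, and without the 14 cells 2 of 4 were higher and 1 lower (median 1.95). The 2 higher genes were S100a8 and S100a9. Outside the 14, 1 Ndrg2-KO DC cell still held 159 UMIs of leukocyte genes (9650 CPM). Mural genes were lower in Ndrg2-KO DC members for 6 of 8 genes (443 against 2013 CPM) and higher in blank members for 6 of 9, with 1 lower (2935 CPM, median 1.76). All 960 mural UMIs of the blank members came from 2 of the 10 cells, and 99 of the 132 in Ndrg2-KO DC members from 1. Without the 6 deepest members the mural median for Ndrg2-KO DC wounds turned from -1.42 to 0.086. The part of these cells in the other comparisons was not tested beyond leaving out the 14.

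Venous genes were lower in blank than in control DC members. Of 10 genes 6 were lower and 1 (Nr2f2, 1.85) higher, with a median of -1.28, and without the 14 members with other types' markers 7 were lower, none was higher and the median was -1.77. Of the 58 Nr2f2 UMIs in blank members 29 came from 1 cell. Lrg1, a leucine-rich glycoprotein of venules, had 380 CPM in control DC and 104 in blank members (log2 ratio -1.87, -2.43 to -1.35). Weighting each cell of the members equally gave Lrg1 means of 396 and 240 CPM, under 2-fold, and 1 control DC cell held 94 of the 240 Lrg1 UMIs. Sele had 52 UMIs in control DC and 2 in blank members (-3.75, -6.83 to -1.83). The 52 came from 4 control DC cells, 23 of them from the cell with the most Selp UMIs. Without the 14 cells, 27 were left in control DC members. Aplnr had 116, 262 and 48.9 CPM in control DC, Ndrg2-KO DC and blank members. By these sums it was higher in Ndrg2-KO DC (1.18, 0.70 to 1.66) and lower in blank members (-1.24, -2.12 to -0.45). Without the 14 cells Aplnr passed 2-fold in neither comparison. With each cell weighted equally its means were 102, 179 and 43.5 CPM in the same order, under 2-fold for Ndrg2-KO DC. In Ndrg2-KO DC members 1 cell held 25 of the 78 Aplnr UMIs. Between Ndrg2-KO DC and control DC members 3 of 10 venous genes were lower and 1 higher (median -0.37), and without the 14 cells 2 were lower, Ackr1 and Selp, and none higher (median -0.44). In control DC members 31.6% of the venous UMIs came from 1 cell.

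The Notch values moved with the members that held other types' markers, most of all in blank wounds. The Ndrg2-KO DC members had 1 of 8 genes higher and 1 lower (median -0.75). Without the 14 cells 3 of 6 were lower, Dll4, Hes1 and Notch4, and 1 higher, Nrarp (median -0.80). The blank members had 5 of 9 higher and none lower (median 1.06); on the list is Notch3, a mural gene, with 53 of its 96 blank UMIs in 1 cell and 3.21 CPM over the 41 members. Without the 14 cells 2 of 6 were higher and 1 lower (median 0.02), and Hes1, at 0.58 in all members, had -1.21. Hes1 had 276, 148 and 413 CPM in control DC, Ndrg2-KO DC and blank members and Nrarp had 26.9, 67.1 and 110, so the 2 targets did not run in the same order. Capillary genes were lower in 3 of 10 cases in blank members (median -0.63), which were Fabp4 at -1.43 (-1.50 to -1.36), Btnl9 at -2.20 (-3.57 to -1.07) and Car4, a carbonic anhydrase, at -1.91 (-3.88 to -0.40). In control DC members 1 cell held 37 of the 62 Btnl9 UMIs, and 1 cell held 16 of the 29 Car4 UMIs. With each cell weighted equally Fabp4 had a mean of 14222 CPM in control DC and 9151 in blank members, under 2-fold, the median cell ran the other way, and 1 control DC cell held 3108 of 10278 UMIs. Rbp7, which is not on that list, had -1.55 (-2.12 to -1.02). Without the 14 cells 4 of 9 were lower (median -0.53). In Ndrg2-KO DC members 1 of 10 was higher, Car4 at 1.31 with 30 of 34 UMIs in 1 cell and -1.24 without the 6 deepest members, and 1 lower, Btnl9 at -1.28 (median -0.12). Without the 14 cells 3 were lower there, Btnl9, Cd300lg and Cd36, and 1 higher (median -0.40). Tip and sprouting genes had 1 of 16 higher and 4 lower in Ndrg2-KO DC members (median -0.36), with Apln at -1.52 and Cxcr4 at -2.28. Without the 14 cells 2 of 14 were lower and none higher, the median was 0.26 and Apln had 0.25. In blank members 1 of 16 was higher and 1 lower (median 0.39), and without the 14 cells 1 of 13 was higher (median 0.59). Basement membrane genes had none of 14 past 2-fold in Ndrg2-KO DC and 2 higher in blank members, and without the 14 cells Col18a1 alone was higher in each.

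Proliferation genes were highest in blank members, mostly from 1 cell. Of 10 genes 7 were higher and 1 lower there (median 2.05), and 1 cell of 35950 UMIs, which held all 12 genes of the list, gave 58.9% of their UMIs. It held 23 UMIs of Mki67 and 18 of Top2a, both specific to dividing cells, beside 28 of Cdh5 and 33 of Pecam1. In Ndrg2-KO DC members 1 of 5 was higher and 1 lower (median 0.74). Over all members Mki67 was found in 10 and Top2a in 7.

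**Figure D4:**
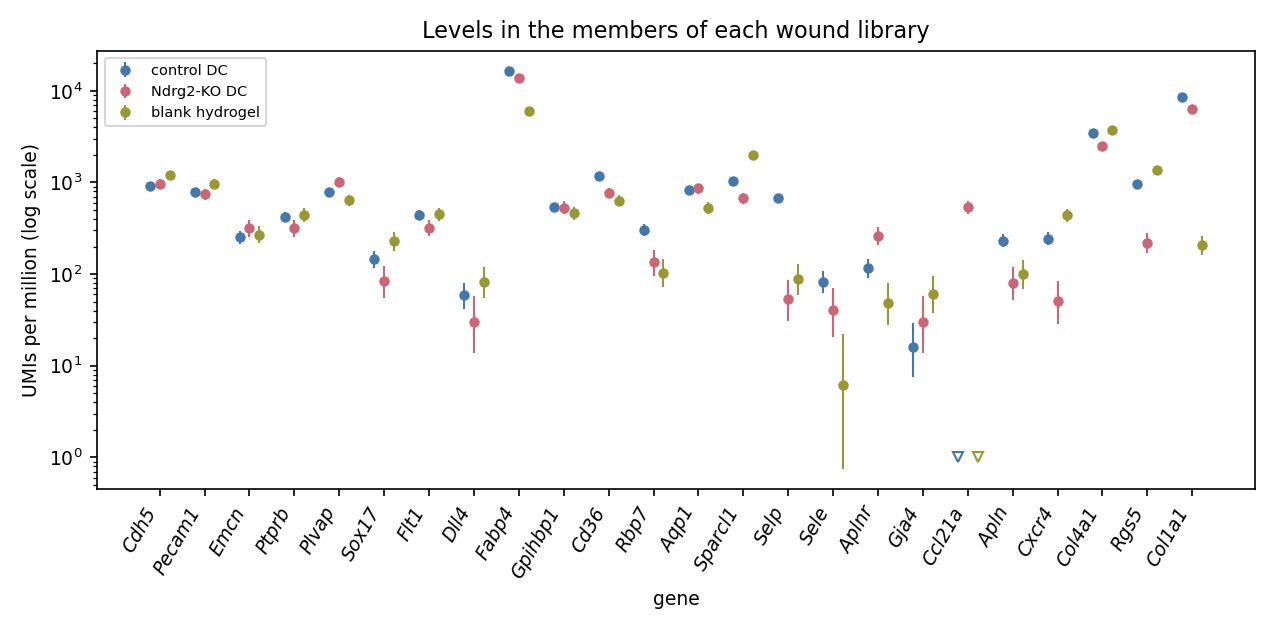
CPM (y axis, log scale) of 24 genes in the summed members of each wound library, with exact 95% Poisson intervals (often smaller than the point); open triangles mark genes with no UMI. Plvap ranges from 639 to 1014 CPM, Fabp4 from 6032 to 16275 and Selp from 53.7 to 684.

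**Figure D5:**
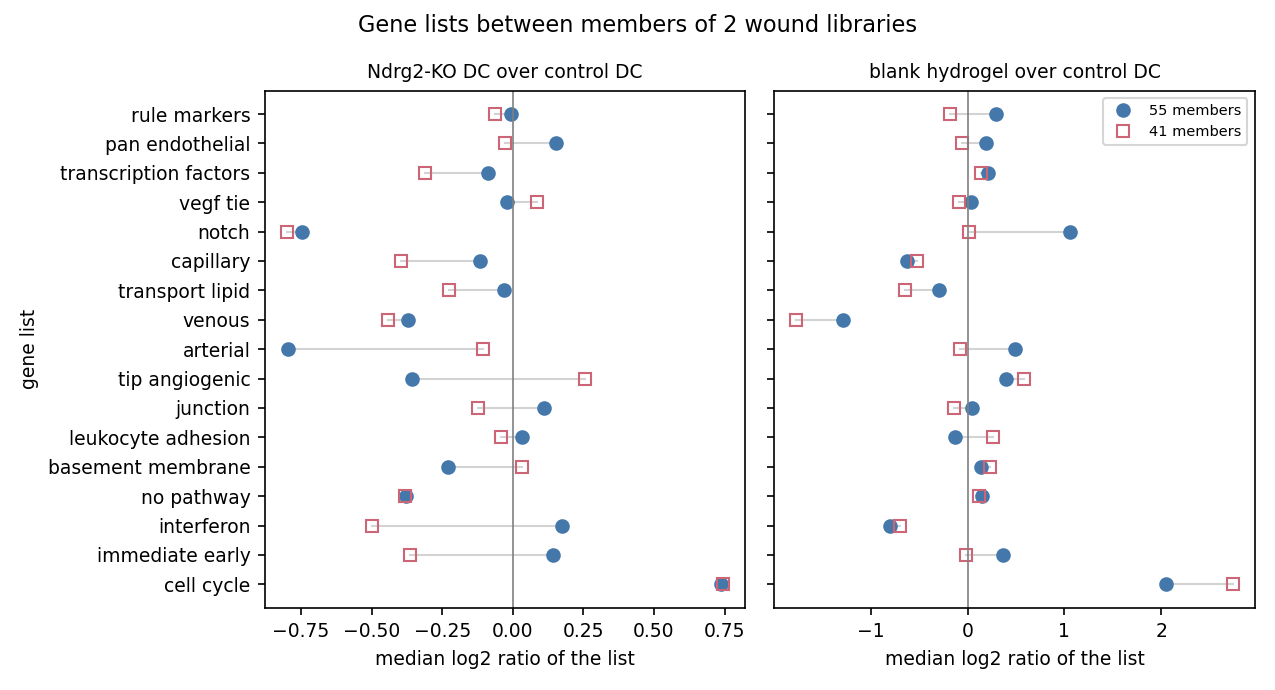
Median log2 ratio of each gene list (x axis) between the summed members of Ndrg2-KO DC and control DC wounds (left) and of blank and control DC wounds (right), for all 55 members (filled circles) and for the 41 without markers of another cell type (open squares). The venous list is at -1.28 and -1.77 in blank members, whereas the Notch list goes from 1.06 to 0.02. The axis name no pathway stands for the vessel tone genes of nitric oxide (NO) and related signals, a list that also holds Dll4.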

How the data were processed

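The authors deposited UMI counts per gene and barcode for 6 droplet libraries (1 per condition), made with Cell Ranger (6.0.0 in the wound file headers, 3.1.0 in those of the cultures). The methods name mm10, the submitters' processing notes mm9 and Seurat 3.1.1; gene coordinates here are from GENCODE on GRCm38, and none was taken from the count files. Counts were used as deposited. The kept wound libraries held 29675507, 49240341 and 34905741 UMIs (control DC, Ndrg2-KO DC, blank) and their members 631518, 297953 and 327110; this depth sets the counting intervals. Counts were summed over cells and scaled to 1000000 (CPM). Genes needed 20 UMIs in the 2 sums together to be counted, 2-fold was the limit, and a sum of 0 was set to 3 UMIs as a bound. The ratio calculation was checked on simulated counts with known folds; no test was made between conditions. Named genes were those of 32 gene lists, the 20 highest ratios of members to others (at least 30 member UMIs) and the 5 largest rises and falls between wounds (at least 20 UMIs in 1 sum), the ranked parts without rule genes and mitochondrial or ribosomal protein genes; 1 ranked gene is not reported here. Members and lists were chosen with earlier results of these data known. Scrublet scores marked the highest 6% of each library. Alternatives covered the filters, the rule, depth, doublets, weighting, scaling, the UMI minimum and the comparison cells. Python 3.11.15 was used with NumPy 2.4.6, pandas 2.3.3, SciPy 1.17.1, scanpy 1.11.5 and matplotlib 3.10.9.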

Additional observations from a re-analysis of the deposited data

How the results depend on the processing

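No paired analysis was possible because each condition is 1 library. With 1 library per condition, 55 members in all and 14 of them with other types' markers, a value between wounds describes those cells, and mice, digestion and capture cannot be told apart from the condition. Depth limits genes of few UMIs, since a gene at 0 in 297953 member UMIs may have been present. The cause of the changes below was not tested, except where a setting changes the number of cells or genes by its own construction.

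The member count of 55 went to 116 with at least 2 markers and to 18 with each cell drawn to 1000 UMIs, and to between 27 and 45 when 1 library was left out; the lowest was without control DC wounds. With at least 2 markers, the shares in control DC, Ndrg2-KO DC and blank wounds were 2.41%, 0.810% and 0.676%. Drawn to 1000 UMIs they were 0.572%, 0.0537% and 0.120%, and among cells within the Ptprc and Lyz2 limits 3.33%, 0.792% and 0.855%. Without those limits the Ndrg2-KO DC share was 0.528%. The log2 share ratio to control DC wounds was -3.41 for Ndrg2-KO DC wounds with drawn cells, and -0.71 and -0.97 for Ndrg2-KO DC and blank wounds per fibroblast.

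Genes higher in members than in other cells numbered 3087, 4631 with each cell weighted equally (mean over cells) and 2041 with median-ratio scaling. For Ndrg2-KO DC against control DC members, 302 genes were higher and 588 lower. The higher count was 464 with at least 2 markers, 494 without the Ptprc and Lyz2 limits, 775 by mean over cells, and 969, 635 and 79 with no minimum, 10 and 50 UMIs. The lower count was 935 by mean over cells, 1294, 1013 and 240 with those minimums, 275 without members with at least 4 fibroblast markers, 288 without all members with other types' markers and 325 without the 6 deepest members. For blank against control DC members, 311 were higher and 491 lower. The higher count was 733 by mean over cells, 202 with median-ratio scaling, 928, 624 and 103 with the minimums and 207 without members with other types' markers. The lower count was 819 by mean over cells, 1261, 881 and 181 with the minimums, and 291, 266 and 263 without the same 3 sets of members. The other 130 of 174 such values stayed within 1.5 times, or within their interval.

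Some directions turned. Members over others: leaving out 1 library gave lymphatic medians from -0.54 (without Ndrg2-KO DC wounds) to 3.79. Without members with other types' markers the mesenchymal and mural medians were -1.47 and -0.47, Procr had -0.36, and Pdgfrb and Acta2, then at 0 UMIs, had at most -2.03 and -3.60. Against fibroblasts the leukocyte median was 1.98, Id2 0.52, Cd74 3.24, Selplg 1.29, H2-Aa 2.73, H2-Ab1 1.79 and H2-Eb1 2.67. Against leukocytes Ptgis was 1.25 and Plod2 2.06. With at least 2 markers Ptgis was 0.74, Hk2 0.17 and Plod2 0.79. By mean over cells the Schwann median was 0.089 and Lpl 0.47. Ndrg2-KO DC over control DC members: without the 6 deepest the mural median was 0.086, Car4 -1.24 and Lgals1 0.27; with at least 2 markers Car4 was -0.54 and Lgals1 0.59; by mean over cells Apln was 0.33, Car4 -0.64 and Lgals1 0.019; without other types' markers Apln was 0.25 and Lgals1 0.81. Blank over control DC members: under 5% mitochondrial UMIs the lymphatic median was -2.08 and Igfbp5 -1.13; with at least 2 markers Igfbp5 was -0.50 and H19 0.85; Lgals1 was 1.13 without other types' markers and 0.26 without the 6 deepest. The settings without other types' markers, without the 6 deepest and per fibroblast were chosen after the data had been seen.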

Other observations

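Antigen presentation genes separated by class. The class I genes H2-K1, H2-D1 and B2m had log2 ratios of -0.09, -0.20 and -0.52 in members over other wound cells, and the class II genes H2-Aa, H2-Ab1, H2-Eb1 and Cd74 had -4.33, -4.45, -4.66 and -4.24. The other cells are mostly leukocytes and the rule limits Ptprc and Lyz2; against fibroblasts alone the class II values turned to 2.73, 1.79, 2.67 and 3.24, and 6 of 9 genes of both classes were higher. Of the 117 Cd74 UMIs, 96 (82.1%) came from 1 Ndrg2-KO DC cell and 16 from another, both with leukocyte markers. The Cd74 value against fibroblasts thus rested mostly on these 2 cells. Against all other wound cells, none of the 9 genes was higher by 2-fold or more and 4 were lower (median -0.52).

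Of 13 interferon response genes 3 were higher and 1 lower in members (median 0.57), beside 22.7% higher and 13.9% lower of all genes, so the count of higher genes was near the background. The higher ones included the GTPase genes Iigp1 at 3.01 (2.89 to 3.12) and Gbp4 at 3.98 (3.65 to 4.30), which act against intracellular pathogens. Iigp1 had 662 CPM in control DC, 339 in Ndrg2-KO DC and 324 in blank members, and Isg15 had 272, 315 and 79.5. Between blank and control DC members 5 of 11 interferon genes were lower and none higher (median -0.80), and 4 of 11 were lower without the 14 members with other types' markers (median -0.69). Between Ndrg2-KO DC and control DC members 3 of 11 were lower and none higher (median 0.18), and without the 14 members 5 were lower and 1 higher (median -0.50).

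Immediate early and heat shock genes, which tissue digestion can induce, had 2 of 12 genes higher and none lower (median 0.46), fewer than the 22.7% of all genes that were higher. The higher genes were Hspa1a at 1.20 and Hspa1b at 1.10, and none of the 12 passed 2-fold between members of any wound and those of control DC wounds. Without the 14 members, Fosb (-1.49) and Egr1 (-1.01) were lower in Ndrg2-KO DC members and the median of the list turned from 0.14 to -0.36. Glycolysis and hypoxia genes had 2 of 12 higher and 4 lower (median -0.66), Pfkfb3 at 1.22 and Hk2 at -1.77 among them. Proliferation genes also had 2 of 12 higher and none lower (median 0.77), so none of these 3 lists passed the share of higher genes over all genes. Mesenchymal genes had 6 of 12 higher and 4 lower (median 1.07), and the median turned to -1.47 without the 14 members. Snai1, a factor of endothelial-to-mesenchymal change, had 3.39 (3.05 to 3.72) and kept 80.3 CPM without them. Acta2, the smooth muscle actin, had 2.66 and fell to 0.

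Of the wound genes that the study names in fibroblasts, Lgals1, Plod2, Ppib and Ngfr had log2 ratios of -0.58, -1.02, 0.16 and -0.98 in members over other cells. Lgals1 had 1056 CPM in control DC, 456 in Ndrg2-KO DC and 526 in blank members, and without the 14 members its log2 ratios to control DC turned from -1.21 to 0.81 and from -1.01 to 1.13. Ngfr had 5 UMIs in 3 members.

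A further 19 cells held at least 3 rule markers but were over the Ptprc or the Lyz2 limit: 2 in control DC, 13 in Ndrg2-KO DC and 4 in blank wounds. Their pan-endothelial sum was 3094 CPM and their leukocyte sum 18429.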
